A study of Homo sapiens with 3 samples.

Results

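The genes described here are 40 human genes of DNA replication and S phase. They were taken by symbol from a list of members and found as 40 of the 33694 features of the count matrices. By role, 9 act in licensing and the helicase, 10 in synthesis and at the fork, 3 in nucleotide supply, 6 in repair, 10 in chromatin and histone supply, and 2 are a cyclin and an E2F factor. All 3 libraries came from BxPC-3, an established human line of pancreatic ductal adenocarcinoma cells. The double-positive library held cells that carried both EGFP and mCherry signals at sorting, after cells stably expressing either protein had been mixed and kept in suspension so that some cells came to lie inside others. The single-positive library held sorted cells with only one of these signals. The parental library held the unmixed line, and neither sorting nor suspension is given for it in the labels. The labels say that expanded cells were trypsinised, but not when they were expanded, nor whether EGFP cells and mCherry cells were pooled in the single-positive library. RNA was captured in droplets with a 5′ kit, and molecules were counted by unique molecular identifiers (UMIs). Each group had 1 library, so no test between conditions was possible and every difference below is between libraries.

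DNA replication is set up before S phase, when the origin complex and CDC6 load rings of MCM proteins onto DNA, which is called licensing. At the start of S phase CDC45 and the GINS complex turn the MCM ring into the active helicase, and primase, the polymerases, the clamp PCNA and its loader follow. Nucleotides come from ribonucleotide reductase and thymidylate synthase, histones are supplied to the new DNA, and repair enzymes act behind the fork. Many of these genes are transcribed under E2F factors at the passage out of G1, whereas genes of mitosis are known for CCAAT and CHR elements in their promoters.

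Promoter stretches of 5 members are shown because these genes mark the ends of the order described below, CDCA7 and MCM6 early, RRM2 and RAD51AP1 late, and PCNA the member with the most UMIs. Each line gives the 160 bases before the RefSeq start in GRCh38.p14, read 5′ to 3′ on the gene's strand, with E2F words in capitals. CDCA7 lies at chr2:173354712-173354871 on the plus strand, MCM6 at chr2:135876444-135876603 on the minus strand, PCNA at chr20:5126623-5126782 on the minus strand, RRM2 at chr2:10122579-10122738 on the plus strand, and RAD51AP1 at chr12:4538730-4538889 on the plus strand. For PCNA and RRM2, which have more than 1 RefSeq start, the window shown is the one with the most CCAAT words. The PCNA window shown is also the one with an E2F word, whereas neither RRM2 window held an E2F word.
CDCA7: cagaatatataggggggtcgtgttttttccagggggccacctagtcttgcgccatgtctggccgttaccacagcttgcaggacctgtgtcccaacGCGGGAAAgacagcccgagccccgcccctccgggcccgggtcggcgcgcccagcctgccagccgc
MCM6: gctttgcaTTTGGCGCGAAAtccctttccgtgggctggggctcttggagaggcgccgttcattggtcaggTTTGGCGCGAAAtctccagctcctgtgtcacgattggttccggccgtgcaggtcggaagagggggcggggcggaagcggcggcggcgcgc
PCNA: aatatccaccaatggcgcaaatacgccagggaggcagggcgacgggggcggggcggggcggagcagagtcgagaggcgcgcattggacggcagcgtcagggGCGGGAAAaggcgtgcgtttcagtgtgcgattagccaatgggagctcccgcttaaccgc
RRM2: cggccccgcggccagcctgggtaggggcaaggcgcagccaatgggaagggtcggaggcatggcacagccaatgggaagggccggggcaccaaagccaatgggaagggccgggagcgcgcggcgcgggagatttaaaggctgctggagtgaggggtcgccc
RAD51AP1: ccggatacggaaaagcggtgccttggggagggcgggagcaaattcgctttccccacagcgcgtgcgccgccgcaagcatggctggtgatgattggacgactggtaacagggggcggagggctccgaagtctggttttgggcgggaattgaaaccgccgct

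The E2F words searched were TTTCCCGC, TTTGGCGC, TTTCGCGC and TTTGCCGC, on both strands, from 250 bases before to 50 after each start. Of the 40 members 31 had a promoter in the RefSeq table, and 18 of these (58.1%) held a word, against 21 of 45 other replication genes (46.7%), 3 of 29 mitotic genes (10.3%) and 1090 of all 27305 genes (3.99%). Each long run of capitals in MCM6 is a pair of overlapping words, so its 4 words form 2 runs. A gene was counted where any of its starts had the word, so genes with more starts had more chances. The word CCAAT was found in 74.2% of members, 53.3% of other replication genes, 86.2% of mitotic genes and 39.7% of all genes. The CHR word TTTGAA was found in 12.9% of members, against 6.67% of other replication genes, 65.5% of mitotic genes and 18.2% of all genes. Among members with a promoter, 3 of the 9 that came late in the order below (an index above 0) held an E2F word. Of the other 22, 15 did. No minimum level was set for this split, so the 9 include POLA1 and BLM, both too low to be counted below. Of the 9, only RAD51AP1 and RRM2 had a pooled interval above 0, and neither held an E2F word. The others, such as BLM (0.015), PRIM1 (0.025) and CDC45 (0.049), had intervals that held 0. The contrast therefore rests largely on unresolved signs. All these words are matches of letters and show no binding.

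A cell was a barcode with at least 6500 UMIs, and each cell was thinned at random to 6500 UMIs, which left 1940 double-positive, 1291 single-positive and 2409 parental cells. Before thinning the libraries held 62517276 UMIs (double-positive), 51637677 UMIs (single-positive) and 65107147 UMIs (parental), and the median cell held 29963.5, 38137 and 23290 UMIs in the same order. Levels are counts per 1000000 UMIs (CPM) summed over thinned cells. Intervals are exact (Clopper-Pearson) at 95% and cover counting error only. A count of 0 would allow 0.238 CPM in double-positive, 0.358 CPM in single-positive and 0.192 CPM in parental cells. The 9 epithelial markers summed to 14631, 15260 and 15727 CPM in double-positive, single-positive and parental cells, whereas fibroblast, immune, endothelial and erythroid markers summed to at most 5.56 CPM each in any library. The libraries shared between 1 and 6 cell barcodes in each pair. The single-positive library stood apart in small droplets: 251 of its cells (19.4%) had under 15000 UMIs, and in these MALAT1, a nuclear RNA, reached 6193 CPM, against 2185 CPM in its other cells. In droplets of that size MALAT1 was at 3947 CPM in double-positive and 2803 CPM in parental cells. Droplets with under 0.5% mitochondrial UMIs made up 6.19% of double-positive, 21.8% of single-positive and 31.8% of parental cells. Sums over the members are given with and without these droplets. Barcodes with 100 UMIs or fewer held on average 2.32, 2.54 and 2.09 UMIs in the double-positive, single-positive and parental libraries. Free RNA in those barcodes held the members at 1618, 1640 and 1452 CPM in the same order, about as in cells.

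The members were shared out unevenly among cells of each library. A thinned cell held a median of 8 member UMIs in the double-positive, 9 in the single-positive and 8 in the parental library, with 25th and 75th percentiles of 4 and 14, 5 and 15, and 3 and 13. No member UMI was found in 63 double-positive, 30 single-positive and 76 parental cells, whereas the fullest cells held 45, 44 and 50 member UMIs. More than 14 member UMIs, the upper quartile over all cells, were found in 24.1% of double-positive cells (interval 22.2 to 26.1%), 25.2% of single-positive cells (22.8 to 27.6%) and 21.7% of parental cells (20.1 to 23.4%). The spread between cells of a library was far wider than the difference between libraries.

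To place the members along the cell cycle, cells were cut at the pooled median of a pair of sums that hold no member, one over 53 other replication genes (more than 11 UMIs) and one over 35 mitotic genes (more than 12 UMIs). This gave 4 ranges, called both low, replication high, both high and mitotic high. A range is a cut of a score and not a cell type, and 18.3% of double-positive, 22.9% of single-positive and 18.8% of parental cells lay near a cut. Replication-dependent histone genes, used in neither sum, served as an outside readout of the ranges. In double-positive cells they summed to 217 CPM in both low, 431 CPM in replication high, 1069 CPM in both high and 704 CPM in mitotic high. The same order of ranges held in single-positive cells (365, 597, 1470 and 1142 CPM) and in parental cells (185, 377, 916 and 639 CPM). In each library the histone genes were thus higher in mitotic high than in replication high, so they did not single out the replication high range.

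Summed over the 40 genes, the members were lowest in both low, highest in replication high and intermediate in the other ranges, in each library. The other replication genes used for the cut have the same roles as the members. Across cells their sum correlated with the member sum at 0.78 in double-positive, 0.76 in single-positive and 0.77 in parental cells. Lower member levels outside replication high and both high were therefore largely given by the cut. In double-positive cells the sum was 643 CPM in both low, 2853 CPM in replication high, 2276 CPM in both high and 1355 CPM in mitotic high. In single-positive cells it was 690, 2806, 2116 and 1383 CPM in the same ranges, and in parental cells 613, 2695, 2188 and 1256 CPM. The replication high and both high ranges therefore differed by less than the both low range did from either. The histone genes, in contrast, were highest in both high.

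**Figure D1:**
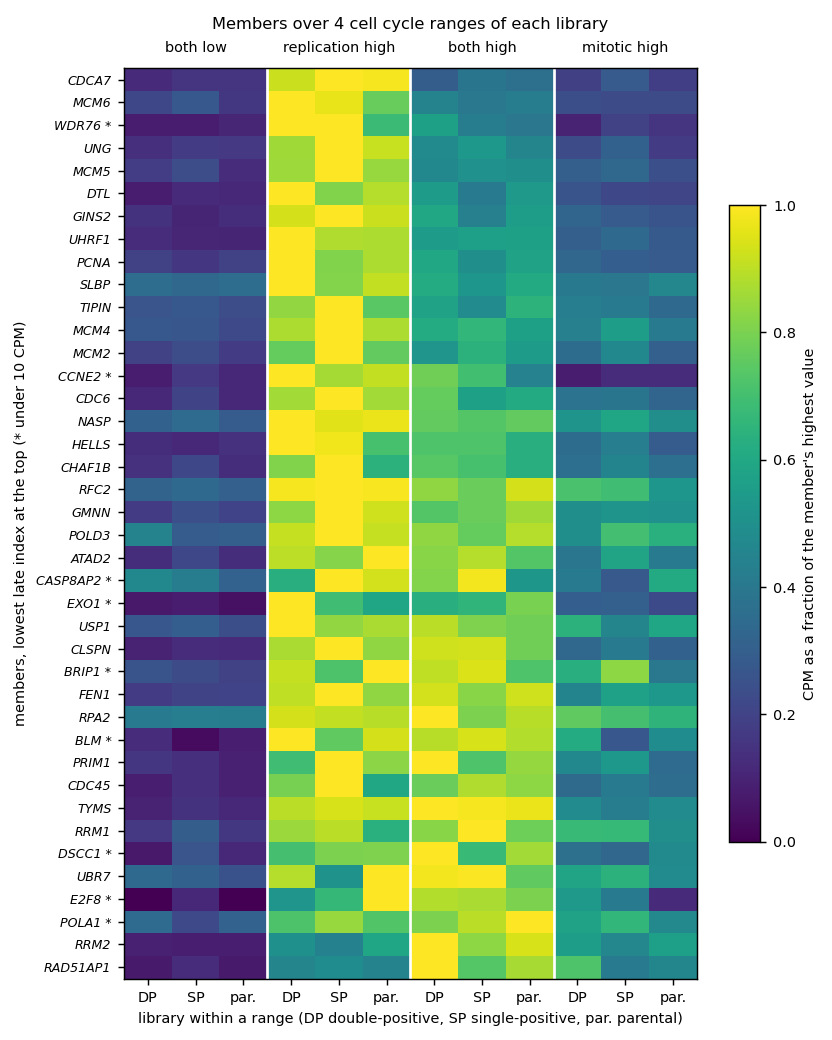
Level of each member in the 4 cell cycle ranges (column blocks) and 3 libraries (columns within a block), as a fraction of that member's highest value. Members run from CDCA7, with the lowest late index, at the top to RAD51AP1, with the highest, at the bottom, and a star marks members under 10 CPM.

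The place of a member was summarised by its late index, the log2 of its CPM in both high over its CPM in replication high, averaged over libraries. A negative index marks a gene that was higher in replication high cells, where the mitotic sum was low, than in both high cells. Cells were not followed over time, so early and late are names here for a low and a high index. Averaged over the libraries, 31 members reached 10 CPM, and of these 24 peaked in replication high and 7 in both high, and none in the other ranges. By role, the median index was -0.58 for licensing and helicase, -0.37 for chromatin and histone supply, -0.13 for repair, -0.11 for synthesis and fork, and 0.13 for nucleotide supply. By these medians licensing genes sat earliest and nucleotide supply latest, although in nucleotide supply only RRM2 had an interval above 0. The medians of repair and of nucleotide supply rest on 3 members each, and in the single-positive library alone synthesis and fork stood at -0.38, nearer chromatin and histone supply (-0.46) than repair (-0.06). The roles overlapped: repair alone ran from -0.92 (UNG) to 0.90 (RAD51AP1).

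The earliest member was CDCA7, which activates the chromatin remodeller HELLS. Its late index was -1.64 in double-positive, -1.36 in single-positive and -1.41 in parental cells. A CDCA7 UMI was found in 27.0% of double-positive, 31.1% of single-positive and 31.3% of parental cells of the replication high range, against 9.54%, 13.8% and 13.2% of those in both high. It was the earliest member in each library. The next were MCM6 (mean index -1.11), WDR76 (-0.95), UNG (-0.92) and MCM5 (-0.88). MCM5 and MCM6 are subunits of the helicase ring, UNG is the glycosylase that removes uracil from DNA, and WDR76 was under 10 CPM. DTL, the receptor of the ubiquitin ligase that destroys the licensing factor CDT1 in S phase, had an index of -0.85, GINS2 one of -0.84 and UHRF1, which reads methylation on new DNA, one of -0.71. PCNA was at -0.69, with a UMI in 86.3% of double-positive, 84.5% of single-positive and 82.8% of parental cells of the replication high range.

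The latest members were RAD51AP1, which acts in DNA repair, with an index of 0.90, and RRM2, the small subunit of ribonucleotide reductase, with 0.86. RAD51AP1 stood at 46.1, 34.0 and 40.02 CPM in both high cells of the double-positive, single-positive and parental libraries, against 21.1, 22.4 and 20.7 CPM in their replication high cells. RRM2 stood at 146, 122 and 137 CPM in both high, against 73.1, 64.2 and 86.1 CPM in replication high. A RRM2 UMI was found in 54.8% of double-positive, 49.7% of single-positive and 55.1% of parental both high cells, against 33.5%, 33.0% and 36.3% of replication high cells. RRM1, the large subunit of the same enzyme, had an index of 0.13, the next above 0 after UBR7 among members past 10 CPM. Between RRM2 and RRM1 lay POLA1, the catalytic subunit of polymerase alpha (0.23), E2F8, a repressor of the E2F family (0.23), and UBR7 (0.19). Neither POLA1 nor E2F8 reached 10 CPM, and the E2F8 index rests on 19 double-positive, 15 single-positive and 21 parental UMIs over all ranges. The sign of the UBR7 index differed between libraries, at 0.14 in double-positive, 0.97 in single-positive and -0.41 in parental cells.

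The order was much the same in the 3 libraries. Rank correlations of the late index over the 31 members were 0.86 between double-positive and single-positive, 0.78 between single-positive and parental, and 0.89 between double-positive and parental cells, as a description over genes that share libraries and ranges. The sign was the same in all 3 libraries for 23 of 31 members, as was the peak. With cuts at the 67th percentile in place of the median, 4 members had an index above 0 in place of 7, and the rank correlation with the main order was 0.92. Under the other choices of cells, depth and seed that were tried, CDCA7 remained the earliest member, and the latest was RAD51AP1 or RRM2 in all of them except the single-positive library alone, where it was UBR7.

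Within single cells, pairs of members of one role correlated little more than pairs across roles. Over the 465 pairs of members past 10 CPM, the mean Pearson correlation across cells (log of thinned counts plus 1) had a median of 0.11 and ran from 0.01 to 0.32. The median was 0.12 over the 98 pairs within a role and 0.11 over the 367 pairs across roles. The 4 highest pairs all held PCNA: GINS2 with PCNA at 0.32, PCNA with the histone chaperone NASP at 0.31, PCNA with thymidylate synthase TYMS at 0.31 and PCNA with the flap nuclease FEN1 at 0.28. At this depth most genes gave 0 or 1 UMI in a cell, which lowers any correlation, so single pairs carry little.

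Sums over a role gave clearer values, although they also grow with the number of UMIs summed. Licensing correlated with synthesis at 0.57 in double-positive, 0.54 in single-positive and 0.55 in parental cells, and with chromatin and histone supply at 0.56, 0.49 and 0.53. Repair correlated with licensing at 0.44, 0.35 and 0.42, and with synthesis at 0.43, 0.40 and 0.41. The mitotic sum went furthest with nucleotide supply (0.49, 0.42 and 0.48), followed by synthesis and fork (0.39, 0.34 and 0.40). It went less with licensing (0.35, 0.29 and 0.39), chromatin and histone supply (0.34, 0.32 and 0.33) and repair (0.33, 0.26 and 0.32). It went least with the cyclin and E2F role (0.08, 0.05 and 0.04), whose members were under 10 CPM. Repair stood below licensing here, so this did not follow the order of the late index throughout. UMIs per cell before thinning correlated with the sums of the 6 roles at -0.06 to 0.14 over the 3 libraries.

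**Figure D2:**
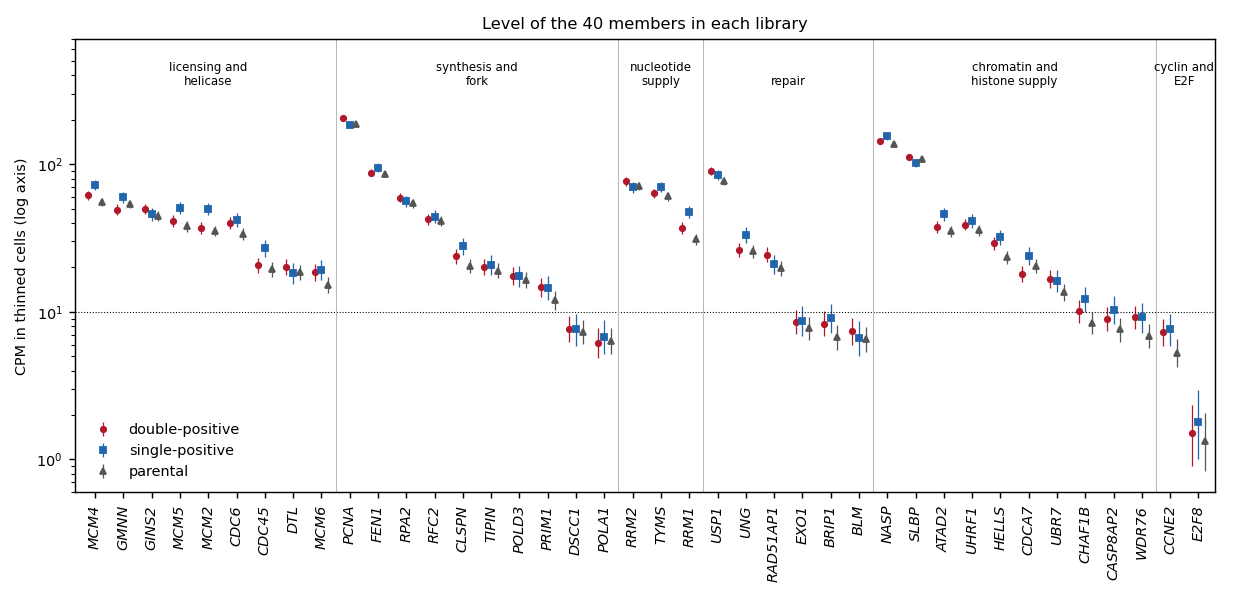
Level of each of the 40 members in double-positive (red), single-positive (blue) and parental cells (grey), in CPM on a log axis, grouped by role, with 95% counting intervals as bars. The dotted line marks 10 CPM, which 31 members passed, and library differences are small beside the range between genes.

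Summed over all 40 genes the level was 1600 CPM in double-positive, 1666 CPM in single-positive and 1474 CPM in parental cells. Each UMI stands for one molecule whatever the length of the transcript, and the levels of single genes ran from 1.34 to 206 CPM. Of the 40 members 9 stayed under a mean of 10 CPM: POLA1, DSCC1, EXO1, BLM, BRIP1, CASP8AP2, WDR76, CCNE2 and E2F8. The other 31 entered the counts of ratios below, in which a member was counted as higher or lower where its log2 ratio was past 0.32 in that direction.

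By sum, licensing and helicase genes were higher in the single-positive library than in the others. The sum was 339 CPM in double-positive, 384 CPM in single-positive and 314 CPM in parental cells. MCM4, a helicase subunit, stood at 61.7, 72.1 and 55.4 CPM in these libraries, with a UMI in 31.0%, 35.0% and 27.8% of cells (69.4%, 75.4% and 63.6% before thinning). MCM2, another subunit, stood at 37.0 CPM in double-positive, 49.7 CPM in single-positive and 35.3 CPM in parental cells, with a UMI in 20.0%, 25.4% and 19.0% of cells (57.3%, 65.1% and 47.6% before thinning). In both, the single-positive library stood highest. CDC45, which joins the ring to form the active helicase, stood at 20.6, 27.1 and 19.4 CPM. GMNN, or geminin, which holds CDT1 inactive after S phase has begun, stood at 49.3, 59.6 and 53.9 CPM and was lowest in double-positive cells, within counting error of parental cells. GINS2 stood at 49.96, 45.8 and 44.8 CPM, with no single-positive peak.

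Synthesis and fork genes differed least by sum, at 486 CPM in double-positive, 474 CPM in single-positive and 450 CPM in parental cells. PCNA, the sliding clamp of the polymerases, stood at 206, 184 and 186 CPM, with a UMI in 58.4%, 58.1% and 56.5% of cells (88.2%, 89.9% and 85.2% before thinning). It was highest in double-positive cells, while the other libraries lay within counting error of each other. FEN1 stood at 87.7, 95.0 and 85.8 CPM and RPA2, a subunit of the protein that coats single-stranded DNA, at 59.5, 56.0 and 54.2 CPM. CLSPN, an adaptor of the replication checkpoint, stood at 23.7 CPM in double-positive, 27.8 CPM in single-positive and 20.4 CPM in parental cells.

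In nucleotide supply the subunits of ribonucleotide reductase parted. RRM1 stood at 36.8 CPM in double-positive, 47.4 CPM in single-positive and 31.0 CPM in parental cells, with a UMI in 20.5%, 25.2% and 17.4% of cells (56.2%, 62.4% and 48.2% before thinning). RRM2 stood at 76.4, 69.8 and 71.3 CPM, with a UMI in 31.3%, 31.2% and 30.0% of cells (58.8%, 60.4% and 56.0% before thinning). RRM1 was thus highest in single-positive cells, whereas RRM2 hardly differed. TYMS, which makes thymidylate, stood at 63.6 CPM in double-positive, 70.2 CPM in single-positive and 60.5 CPM in parental cells.

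Among repair genes, USP1, which removes ubiquitin from FANCD2 and PCNA, stood at 89.9 CPM in double-positive, 84.4 CPM in single-positive and 77.1 CPM in parental cells. UNG stood at 26.3, 33.2 and 25.7 CPM, with the single-positive library above the others. RAD51AP1 stood at 24.4, 21.0 and 19.7 CPM, with the double-positive library highest. The remaining repair members, the nuclease EXO1 and the helicases BLM and BRIP1, lay between 6.51 and 9.06 CPM in every library.

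Among genes of chromatin and histone supply, NASP stood at 145 CPM in double-positive, 154 CPM in single-positive and 137 CPM in parental cells, with a UMI in 54.1%, 58.2% and 51.6% of cells (88.7%, 90.2% and 83.9% before thinning). SLBP, which binds the stem-loop of histone messages, stood at 112, 102 and 109 CPM and was lowest in single-positive cells, within counting error of parental cells. ATAD2, a bromodomain ATPase, stood at 37.7, 45.9 and 35.2 CPM, HELLS at 29.1, 31.9 and 23.5 CPM, and CDCA7 at 18.1, 24.1 and 20.4 CPM. UBR7 stood at 16.7, 16.2 and 13.5 CPM, and CHAF1B, a subunit of the chromatin assembly factor, at 10.2, 12.2 and 8.43 CPM. The cyclin CCNE2, a partner of CDK2 at the start of S phase, stood at 7.30, 7.63 and 5.30 CPM and E2F8 at 1.51, 1.79 and 1.34 CPM.

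In free RNA of the smallest barcodes the members kept much the same scale, for instance PCNA at 187 CPM in double-positive, 156 CPM in single-positive and 173 CPM in parental barcodes. Such a barcode held on average 0.00376 member UMIs in the double-positive, 0.00417 in the single-positive and 0.00303 in the parental library. These barcodes held far fewer UMIs than a thinned cell, so the values cannot be set against the shares of cells with a UMI. Per UMI, free RNA held the members at about the level in cells. Whether detection in cells exceeded free RNA was not tested. Every cell here belongs to one line, so no cell type that lacks these genes was at hand. In the both low range MCM2 was found in 10.4% of double-positive, 11.9% of single-positive and 9.01% of parental cells, against 34.6%, 42.2% and 33.4% in replication high. The cut used genes with the same roles, so lower shares in both low were largely given by it. They are not a background level.

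Double-positive against single-positive cells asks what sets sorted cells with both signals apart from sorted cells with one signal. The members summed to a slightly lower level in double-positive cells, with a log2 ratio of -0.06 (interval -0.09 to -0.03). Of the 31 members counted, 0 were higher by this rule, where 2.94% of all 7776 features at 10 CPM or more were, and 5 were lower, where 7.97% of all features were. The median over members was -0.08, against -0.04 over all features. Of the members 11 lay above 0 and 20 below, and of all features 3213 lay above and 4563 below. The direction of the sum turned with median-of-ratios scaling (0.01), with the 4 ranges weighted equally (0.03) and in cells of a shared UMI range (0.32). All UMIs without thinning gave -0.12. Leaving out droplets under 15000 UMIs, a setting added after seeing the data, gave -0.12 with 8 members lower, and another random seed gave -0.09 with 3 lower, so the count of 5 rests in part on the draw.

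The 5 lower members were MCM2, CDCA7, CDC45, RRM1 and UNG. MCM2 had a log2 ratio of -0.42 (interval -0.62 to -0.23), or -0.32 on all UMIs without thinning and -0.29 with another seed. CDCA7 had -0.41 (-0.69 to -0.13), and -0.34 without thinning. CDC45 had -0.39 (-0.65 to -0.13) and UNG -0.34 (-0.57 to -0.10). RRM1 had -0.37 (-0.56 to -0.17), and -0.15 with another seed. They come from licensing, chromatin supply, nucleotide supply and repair, and only CDC45 changed sign in any setting tried, at 0.38 in the shared UMI range and 0.16 when thinned to 3000 UMIs. At the other end were RAD51AP1 at 0.22 (-0.05 to 0.50), PCNA at 0.17 (0.07 to 0.26) and DTL at 0.14 (-0.16 to 0.44), of which only PCNA had an interval above 0. By role the log2 ratio of sums was -0.18 for licensing and helicase, -0.08 for nucleotide supply, -0.07 for chromatin and histone supply, 0.02 for repair and 0.04 for synthesis and fork. Histone genes differed in the same direction by more, with summed levels of 604 CPM in double-positive and 937 CPM in single-positive cells.

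**Figure D3:**
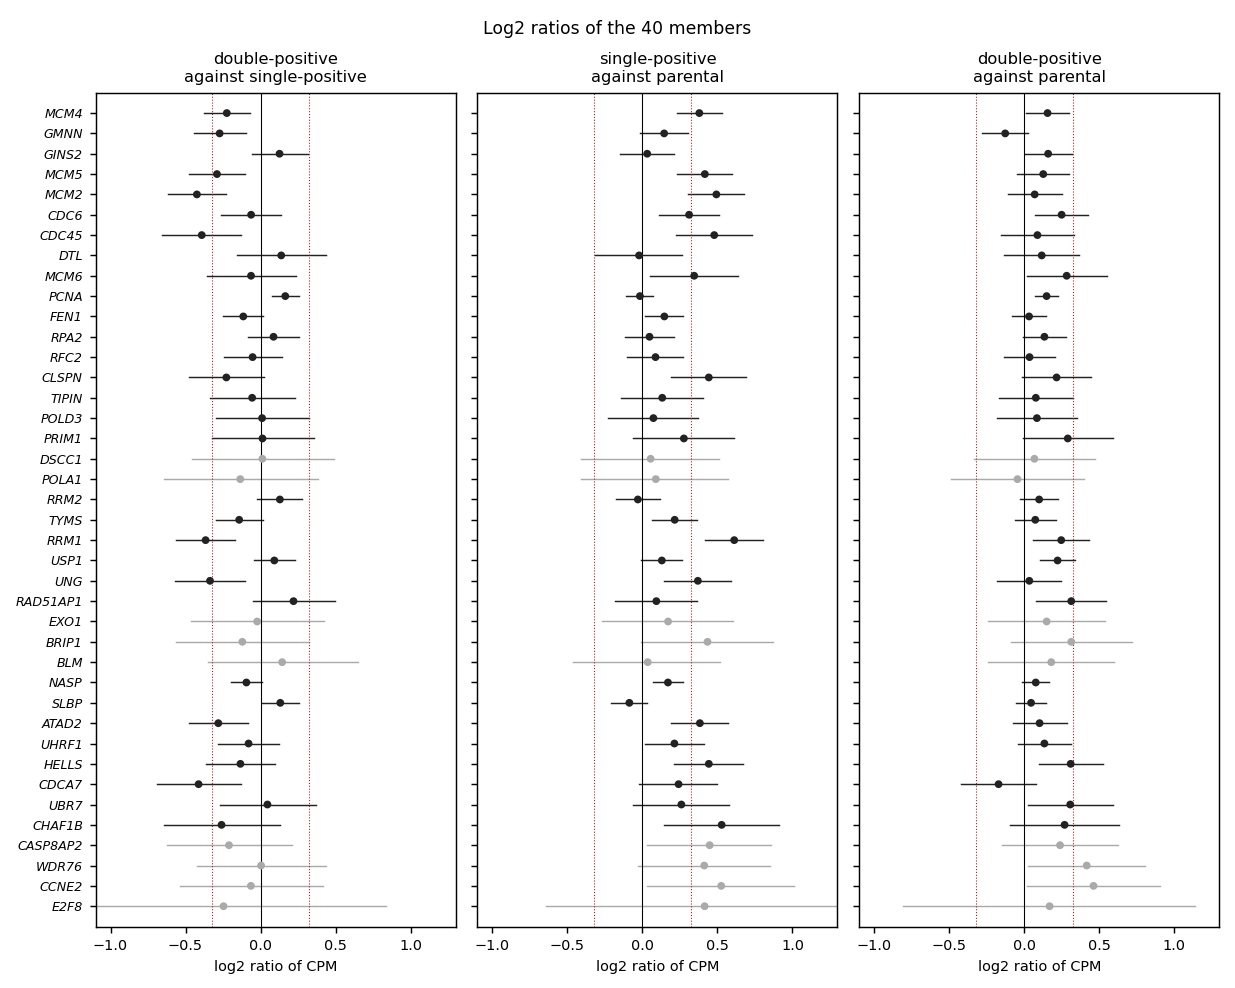
Log2 ratios of CPM for the 40 members in 3 comparisons, with 95% counting intervals as bars, members under 10 CPM in light grey, and dotted lines at log2 ratios of 0.32 and -0.32. The intervals of E2F8 run past the axis, and of the points right of the dotted line at 0.32 in single-positive against parental (middle), 11 are dark and the others are members under 10 CPM.

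Single-positive against parental cells sets mixed, suspended and sorted cells with one signal against the line they came from. The members summed to a higher level in single-positive cells, with a log2 ratio of 0.18 (interval 0.15 to 0.21). Of the 31 members 11 were higher (log2 ratio past 0.32), where 8.86% of all features were, and 0 were lower, where 2.25% of all features were. The median over members was 0.21, against 0.06 over all features, and 27 members lay above 0 and 4 below. The intervals of 16 members lay above 0 and those of 0 members below it. Of all 7776 features 4787 lay above 0 and 2989 below, with intervals above 0 for 1706 and below 0 for 900. The sum was 0.11 without droplets under 0.5% mitochondrial UMIs. Scaling by the median of ratios gave 7 members higher and a summed ratio of 0.10, and equal weight to the 4 ranges gave 5 members higher and 0.05. In the shared UMI range, with 142 single-positive and 628 parental cells, the sum turned to -0.19, with 5 members higher and 15 lower. The share of all features past the same limit is not given for that range, where counts rest on fewer cells.

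The highest ratio was that of RRM1, at 0.61 (0.42 to 0.81), with 0.44 on all UMIs without thinning and 0.35 with another seed. CHAF1B followed at 0.53 (0.14 to 0.91) and MCM2 at 0.49 (0.31 to 0.68). MCM2 was past 0.32 in all 11 other settings of cells, depth, scaling and weights that were tried, the shared UMI range included. Of these settings, the limits of 500 genes and 20% mitochondrial UMIs removed no cell and could not differ from the main value. The other members past 0.32 were CDC45, HELLS, CLSPN, MCM5, ATAD2, MCM4, UNG and MCM6, between 0.34 and 0.48. With another seed UNG was at 0.13 and MCM6 at 0.18, HELLS also lay just under the limit, and the count was 9. Helicase and licensing genes thus made up 5 of the 11. CDC45, CLSPN, HELLS, CHAF1B and ATAD2 turned to the other side in the shared UMI range alone. The lowest ratios were SLBP at -0.09 (-0.21 to 0.03), RRM2 at -0.03 (-0.18 to 0.11) and DTL at -0.02 (-0.31 to 0.26), each with an interval that held 0. By role the log2 ratio of sums was 0.29 for licensing and helicase, 0.20 for nucleotide supply, 0.18 for repair, 0.17 for chromatin and histone supply and 0.08 for synthesis and fork.

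Of the 53 replication genes outside the member list 45 passed the floor, and 7 of these (15.6%) were higher and 0 lower in single-positive against parental cells, with a median of 0.17. The share was 35.5% among members and 17.6% among mitotic genes, of which 6 of 34 were higher and 29 lay above 0. The highest were FANCI, of the Fanconi repair pathway (0.42), GINS1, a partner of GINS2 (0.39), and CDC25A, a phosphatase that activates CDK2 (0.35), and the lowest MCM10 (-0.14), DBF4 (-0.06) and POLD2 (-0.03). The remaining helicase subunits MCM7 and MCM3 stood at 159 and 57.4 CPM in single-positive cells, against 125 and 47.6 CPM in parental cells. Histone genes summed to 937 CPM in single-positive and 506 CPM in parental cells, and mitotic genes to 2640 and 2535 CPM. Double-positive against single-positive cells had 0 outside genes higher and 2 lower (4.44%, below the share of all features), and double-positive against parental cells 1 higher and 0 lower.

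In double-positive against parental cells most members lay slightly higher, and no member past 10 CPM passed 0.32. Under that floor CCNE2 (0.46, interval 0.02 to 0.91) and WDR76 (0.42, 0.02 to 0.81) did. The summed log2 ratio was 0.12 (interval 0.09 to 0.15), and 29 of 31 members lay above 0, with a median of 0.13 against 0.01 over all features. Of all 7776 features 4181 lay above 0 and 3595 below. Of the 31 members 0 were higher, where 3.10% of all features were, and 0 lower, where 2.38% were. Other settings gave between 0 and 4 members higher. The highest ratios were RAD51AP1 at 0.31 (0.08 to 0.54), HELLS at 0.31 (0.10 to 0.52) and UBR7 at 0.31 (0.02 to 0.59), and the lowest CDCA7 at -0.17 (-0.42 to 0.08), GMNN at -0.13 (-0.28 to 0.02) and FEN1 at 0.03 (-0.08 to 0.15). The sum was 0.05 without droplets under 0.5% mitochondrial UMIs and 0.08 with the 4 ranges weighted equally. The 3 comparisons share libraries, so they are not independent of each other.

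**Figure D4:**
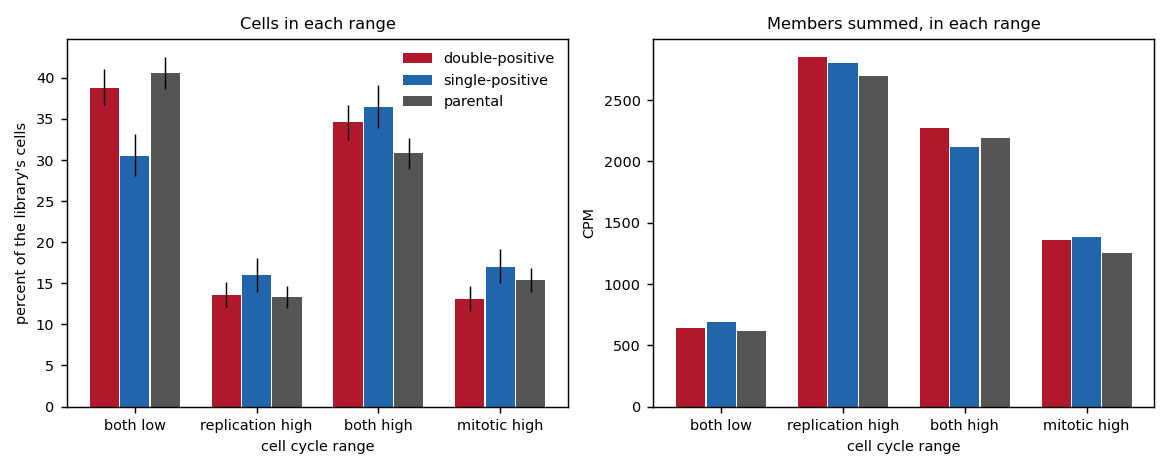
Left, percent of each library's cells in the 4 cell cycle ranges, with 95% counting intervals, for double-positive (red), single-positive (blue) and parental cells (grey). Right, summed CPM of the 40 members within each range, which differs between libraries far less than between ranges.

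The libraries differed in how their cells fell into the ranges. Both low held 38.8% of double-positive, 30.5% of single-positive and 40.6% of parental cells, and both high held 34.6%, 36.5% and 30.8%. Replication high held 13.6%, 16.0% and 13.3%, and mitotic high 13.0%, 17.0% and 15.4%. The single-positive library thus had the fewest cells low in both sums. In its droplets under 15000 UMIs 39.0% were in mitotic high. Without droplets of that size mitotic high held 13.6% of double-positive, 11.7% of single-positive and 16.6% of parental cells, so the single-positive library was lowest there in place of highest. Without droplets under 0.5% mitochondrial UMIs it held 12.6%, 17.0% and 11.9%. Histone genes without droplets under 15000 UMIs summed to 601 CPM in double-positive, 838 CPM in single-positive and 483 CPM in parental cells.

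Within each range the summed difference from parental cells was no larger than over all cells, in double-positive and in single-positive cells. Single-positive against parental cells had summed log2 ratios of 0.17 in both low, 0.06 in replication high, -0.05 in both high and 0.14 in mitotic high. The both low value was nearly that over all cells (0.18). Medians over members were 0.26, 0.12, -0.05 and 0.26 in the same ranges, against 0.21 over all cells, so they were larger in both low and mitotic high. The interval of the both high value (-0.094 to -0.004) lay on the other side of 0 from the value over all cells. Double-positive against single-positive cells had -0.10, 0.02, 0.11 and -0.03 in the same ranges, and double-positive against parental cells 0.07, 0.08, 0.06 and 0.11. How much of the difference over all cells comes from the mix of ranges was not tested beyond the equal weights given above.

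**Figure D5:**
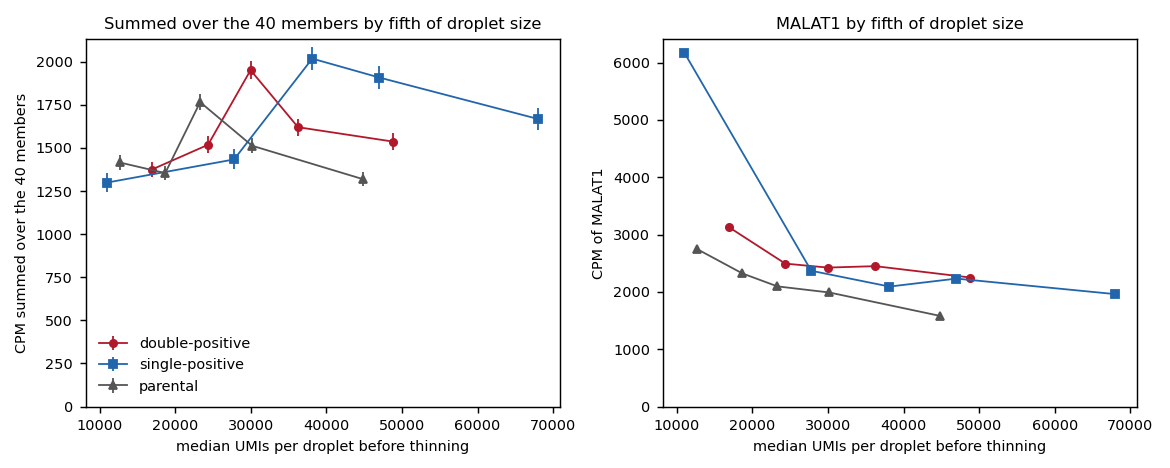
Left, summed CPM of the 40 members in 5 size groups of the cells of each library by UMIs before thinning, with 95% counting intervals, at the median UMIs of each group. Right, MALAT1 in the same groups, where the smallest single-positive droplets stand at 6173 CPM.

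Member levels also moved with droplet size inside each library. Cells of a library were split into 5 size groups of about the same number of cells. From the smallest to the largest droplets the sum was 1375, 1519, 1952, 1621 and 1537 CPM in double-positive cells. It was 1299, 1434, 2018, 1909 and 1668 CPM in single-positive and 1416, 1354, 1766, 1513 and 1319 CPM in parental cells. In each library the middle group was highest, although its median was 29963.5 UMIs in double-positive, 38124.5 UMIs in single-positive and 23290 UMIs in parental cells. A fixed UMI range therefore took unlike stretches of each library. The shared range, from 22974 to 32998 UMIs, held 38.2% both low cells in double-positive, 54.2% in single-positive and 30.4% in parental cells.

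The small droplets lowered the single-positive member level. Droplets under 15000 UMIs held the members at 1453 CPM in double-positive, 1299 CPM in single-positive and 1429 CPM in parental cells, against 1612, 1754 and 1482 CPM in the remaining cells of these libraries. Without them the summed log2 ratio was 0.24 in single-positive against parental cells, a larger difference than with them. What these droplets are was not tested.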

How the data were processed

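The deposited matrices hold counts of UMIs per gene and barcode, written by Cell Ranger per the file headers, with 737280 unfiltered barcodes in each library. The build was GRCh38, and Seurat 4.0.6 and Cell Ranger 4.0.0 were used, per the submitters' processing notes. No source used here gives the annotation release. Groups were taken from the labels.

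Cells were barcodes with at least 6500 UMIs, thinned without replacement to 6500 UMIs with a fixed seed. None had over 20% mitochondrial UMIs or under 500 genes, and no droplet was removed as a doublet. Thinned counts were summed per library and scaled to CPM. Ratios have exact conditional binomial (Clopper-Pearson) intervals. With 1 library per group no p-value was computed, and p-values over cells would not stand for conditions. Features with a mean of at least 10 CPM were counted as higher or lower past a log2 ratio of 0.32. Ratios and their intervals were tested before use on simulated gene totals that held counting error only, and thinning on a small example matrix. The ranges, late index, correlations and promoter search were not tested in this way.

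The members, gene lists and thresholds were chosen with earlier results of these data known. Named genes were, per role, the 3 highest levels; per comparison, the 3 highest and 3 lowest ratios; the 5 highest and 5 lowest late indices; and 3 outside genes at each end of single-positive against parental. Members past 0.32, and MCM7 and MCM3, were named after their values were seen. Identifiers were matched to GENCODE 29 to find chromosomes, and promoters are from RefSeq (GRCh38.p14). Alternatives changed cells, depth, seed, scaling, ambient RNA, range weights, floor and fold. Analyses ran in Python 3.11.15 with scipy 1.17.1, pandas 2.3.3, matplotlib 3.10.9 and numpy 2.4.6.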

Additional observations from a re-analysis of the deposited data

Results flagged for a closer look

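Barcodes with at least 1000 and under 6500 UMIs were left out of every comparison, and they carried member UMIs above the limit that a count of 0 allows. The summed member level in them was 1166 CPM in 152 double-positive, 742.6 CPM in 106 single-positive and 1226 CPM in 160 parental barcodes. In cells it was 1600 CPM in double-positive, 1666 CPM in single-positive and 1474 CPM in parental cells, and in free RNA of the smallest barcodes 1618, 1640 and 1452 CPM in the same order, so free RNA alone would also pass that limit. What these barcodes hold was not tested.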

How the results depend on the processing

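No paired analysis was possible because each group has 1 library, and for the same reason no replicate could be left out. Limits of 500 genes and 20% mitochondrial UMIs changed no value. Summed log2 ratios are given here for double-positive against single-positive (-0.06), single-positive against parental (0.18) and double-positive against parental (0.12). In the shared UMI range the first was 0.32 and the second -0.19, with medians over members of 0.36 and -0.30. They were 0.0071 and 0.098 with median-of-ratios scaling, and 0.0275 and 0.0507 with equal range weights, where the last was 0.0782. Without thinning they were -0.12 and 0.25. Without droplets under 15000 UMIs, a setting chosen after seeing the data, they were -0.12 and 0.24. With another seed the first was -0.0917 and the last 0.0883. Thinned to 3000 UMIs the second was 0.14 and the last 0.0905, and without droplets under 0.5% mitochondrial UMIs 0.11 and 0.0541.

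Members lower in double-positive against single-positive cells (5) numbered 1 in the shared UMI range, 8 without droplets under 15000 UMIs, 2 thinned to 3000 UMIs, 3 with another seed, 3 with median-of-ratios scaling, 1 with equal range weights and 0 at 1.5-fold. Members higher there (0) numbered 17 in the shared UMI range, 1 at 6500 to 50000 UMIs and 1 with equal range weights. Shares of all features are given for the main setting only, so counts under other settings have no such share beside them. Members higher in single-positive against parental cells (11) numbered 5 in the shared UMI range, 7 with median-of-ratios scaling, 5 with equal range weights and 1 at 1.5-fold. Members lower there (0) numbered 15 in the shared UMI range and 1 thinned to 3000 UMIs. Members higher in double-positive against parental cells (0) numbered 4 at 6500 to 50000 UMIs and when thinned to 3000 UMIs, 3 in the shared UMI range and with ambient RNA subtracted, 2 without droplets under 15000 UMIs, with another seed and with no minimum CPM, and 1 without thinning and without droplets under 0.5% mitochondrial UMIs.

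In the shared UMI range CDC45 in double-positive against single-positive cells turned to 0.38, as it did to 0.16 thinned to 3000 UMIs. In single-positive against parental cells the shared range turned CDC45 to -0.59, CLSPN to -0.95, HELLS to -0.45, CHAF1B to -0.14 and ATAD2 to -0.29. Cuts at the 67th percentile left 4 members with a late index above 0 in place of 7. The cause of these turns was not tested. Intervals do not cover the draw of thinning, and members under 10 CPM are limited by depth.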
